A study of Mus musculus with 35 samples.

Results

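The 18 tumors described here are the medium, large and very large neuroblastomas of a set of 24 tumors from TH-MYCN mice, and they make up 18 of the 35 arrays of the study. They were chosen by their titles, 6 from each of these size classes, and the question was which genes keep changing with tumor weight once a tumor has left the small class. All mice were bred to homozygosity for TH-MYCN, a human MYCN transgene under the tyrosine hydroxylase promoter, which is active in the sympathoadrenal lineage. Ultrasound followed the mice from weaning at day 28, each was killed when its tumor came within a set size range, and the labels name no treatment. Total RNA from frozen sections was hybridised to single-colour arrays.

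Medium tumors had weights of 0.24 to 0.46 g (mean 0.347 ± 0.085 g, SD, n = 6) and came from mice killed at 35 to 42 days. Large tumors weighed 0.76 to 1.3 g (0.943 ± 0.217 g, n = 6) and came from mice of 35 to 46 days. Very large tumors weighed 1.6 to 3 g (2.038 ± 0.591 g, n = 6) and came from mice of 35 to 45 days. The weights of the 18 larger tumors thus span 12.5-fold, whereas the full set of 24 tumors spans 60-fold. The 6 small tumors (0.05 to 0.1 g, 28 to 42 days) entered the normalization and, as a comparison, a departure test and a slope over all 24 tumors, but not the slope among the larger tumors. Each title carries its own specimen name and the labels do not otherwise tie tumors to animals, so p-values measure the spread between specimens. Replicate numbers below follow the order of the samples within a class and are not part of the labels.

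Neuroblastoma arises from sympathetic precursors, and MYCN, a transcription factor that drives growth and cell division, is the oncogene of this model. As a solid tumor grows it depends on host vessels, stroma and immune cells, and its RNA mixes that of tumor cells with that of blood and neighbouring tissue. In such bulk samples, fewer cells of a type and less RNA per cell cannot be told apart.

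The arrays carried the label's tissue. Over the 18 tumors Th, the rate-limiting enzyme of catecholamine synthesis, had log2 levels of 16.47 to 18.81, which lie at the 95.4th to 99.0th percentile of all probes of an array. The granin Chgb lay at the 98.6th to 99.8th percentile. Dbh, which makes noradrenaline, was lower, at the 69.4th to 80.3rd percentile. Before scaling, array medians ran from 557.79 to 1292.16 intensity units. Array median and log10 weight had r = -0.304 (permutation p = 0.218, adjusted over 2 relations 0.36; rho = -0.351, p = 0.154, adjusted 0.308), and r = -0.226 once the 2 tumors farthest from the median weight were left out. Life span and log10 weight had r = 0.227 (permutation p = 0.36, adjusted 0.36; rho = 0.238, p = 0.336, adjusted 0.336), and r = 0.394 without those 2 tumors. Within classes of 6 the life span relation had r = -0.912 in medium, -0.445 in large and 0.218 in very large tumors, with exact permutation p = 0.0333, 0.367 and 0.583 (adjusted over 6 relations 0.2, 0.681 and 0.681).

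One array stood apart. Very large replicate 4, a tumor of 2.55 g, had a score of 141.6 on the first principal component, which held 11.3% of the variance, while the other 17 arrays had scores of -21.4 to 22.2. Its mean Pearson's r with the other 17 arrays across probes was 0.931, against 0.943 to 0.961 for the rest. This array is the second heaviest tumor, so slopes are also given without it wherever they moved by over 1.5 times.

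No probe had a weight slope that passed the test among the 18 larger tumors. The slope is the change in log2 intensity per 10-fold tumor weight, fitted with limma, and an adjusted p under 0.05 over all 32996 probes counts as passing. The count was 0 of 32996 (0%), and the smallest adjusted p was 0.614. At an unadjusted p under 0.05 there were 1957 probes (5.93%), and 413 had an unadjusted p under 0.01. Without very large replicate 4 the count at an unadjusted p under 0.05 was 1619, and the count after adjustment was again 0. When the classes were compared as groups, 0 probes passed for very large minus medium (1659, or 5.03%, at an unadjusted p under 0.05), 0 for large minus medium (982, or 2.98%) and 0 for very large minus large (1484, or 4.50%).

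**Figure D1:**
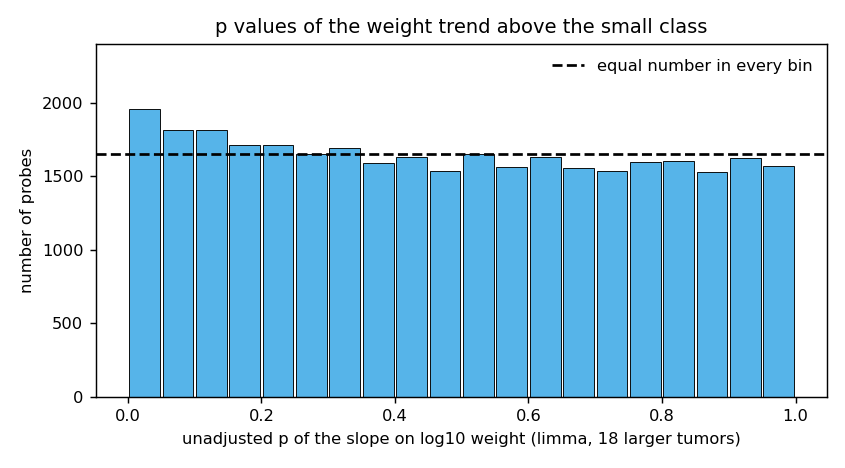
Number of probes (vertical axis) in bins of the unadjusted limma p of the slope on log10 weight (horizontal axis, bins of width 0.05) among the 18 larger tumors. The dashed line is an equal spread of 1649.8 probes per bin, and the first bin holds 1957.

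The intervals show what size of trend the 18 tumors could have missed. Of 7797 genes with a name, 5821 (74.7%) had a 95% interval of the slope that lay wholly between -1 and 1, which is less than a 2-fold difference per 10-fold weight in either direction. The median half-width of the interval was 0.432, with a lower decile of 0.290 and an upper decile of 1.077. The median slope was -0.005 over named genes and 0.006 over all probes. Among named genes 223 (2.86%) had a positive slope and 309 (3.96%) a negative one at an unadjusted p under 0.05. This balance depended on the scaling: with median-centred arrays 53 (0.68%) were positive and 926 (11.9%) negative, and without normalization 15 (0.192%) and 701 (8.99%). The median slope of named genes was then -0.26 and -0.59, and 84.6% and 95.1% of them had a negative slope, against 50.8% after quantile normalization. Counts of list members below are read against these shares.

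In the fit of all 18 tumors, after quantile normalization, every adjusted p of a slope was at least 0.614. None of the slopes among larger tumors given below passed, and they are given as values with their errors or intervals. Many of these genes were picked by their p in the same fit, which favours genes whose classes lie apart. Where classes are said below to lie apart, this adds no evidence for a slope. The share of all named genes with classes so apart is not given here.

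Genes of red blood cells had some of the steepest positive slopes. They comprise the globins, which carry oxygen, and Alas2, the erythroid enzyme that starts heme synthesis. Hba-a1, an adult alpha globin, had log2 levels of 15.43, 17.50 and 20.45 in medium tumors (lowest, median and highest of 6), 17.59, 19.42 and 20.04 in large tumors and 18.62, 20.47 and 20.91 in very large tumors. The class medians were ordered by weight, but the classes overlapped. Medium replicate 3, the heaviest medium tumor, reached the level of the very large ones. Medium replicate 2 (18.99), the lightest, also lay above very large replicate 1 (18.62). The slope was 3.05 (SE 0.76, 95% interval 1.49 to 4.61, limma adjusted p = 0.614). The Hba-a1 probe is uncertain, since Hba-a2 is a near-identical copy whose RNA it may also read.

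Alas2 had log2 levels of 11.63, 13.13 and 16.38 in medium tumors, 12.86, 14.96 and 15.51 in large tumors and 14.41, 16.21 and 17.39 in very large tumors. Its slope was 3.21 (SE 0.80, 95% interval 1.56 to 4.86). Hbb-y, an embryonic beta-like globin, had log2 levels of 10.09, 11.23 and 13.96 in medium tumors, 10.95, 12.22 and 12.89 in large tumors and 12.44, 13.77 and 15.19 in very large tumors. For both genes the highest medium tumor was again replicate 3, and only some of the very large tumors (2 of 6 for Alas2, 3 of 6 for Hbb-y) lay above it. The slope of Hbb-y was 2.62 (SE 0.66, 95% interval 1.26 to 3.98) on the probe that stands for it. A second, dimmer probe of Hbb-y had a slope of 0.25, so no direction is drawn for this gene. Hbq1a, a theta globin, had a slope of 2.58 (SE 0.74).

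Leaving out single tumors kept the slope of Hba-a1 between 2.56 (without medium replicate 1) and 3.66 (without medium replicate 2), and that of Alas2 between 2.83 and 3.76. Without very large replicate 4 they were 3.04 and 3.24. With size class as a block, which leaves the weight differences within a class, the slopes were 2.08 for Hba-a1, 2.27 for Alas2, 1.71 for Hbb-y and 0.56 for Hbq1a. Of the 17 genes in the erythroid marker list 3 were measured, namely Hba-a1, Alas2 and Hbb-y, and none was at the floor on any array. Their summed intensity ran from 49519 to 1533209 in medium tumors (median 223179), from 207352 to 1127438 in large tumors (median 746528) and from 430031 to 2183907 in very large tumors (median 1540510). The share of blood in the sections and its part in these slopes was not tested.

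The 250 bases before the RefSeq start of these genes (GRCm38.p6) are shown because they are the measured members of the erythroid list. Their control by GATA1 and KLF1 in red cell precursors is also well known. Capitals mark GATAA, the core of GATA sites, and CCACCC, the core of sites read by KLF1, or their reverse complements TTATC and GGGTGG.
Hba-a1, chr11:32283422-32283671, plus strand: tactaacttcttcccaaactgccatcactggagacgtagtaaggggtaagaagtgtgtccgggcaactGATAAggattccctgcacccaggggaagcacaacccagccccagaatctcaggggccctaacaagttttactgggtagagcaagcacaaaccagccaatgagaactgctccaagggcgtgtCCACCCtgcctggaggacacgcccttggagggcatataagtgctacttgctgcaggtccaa
Hbb-y, chr7:103853208-103853457, minus strand: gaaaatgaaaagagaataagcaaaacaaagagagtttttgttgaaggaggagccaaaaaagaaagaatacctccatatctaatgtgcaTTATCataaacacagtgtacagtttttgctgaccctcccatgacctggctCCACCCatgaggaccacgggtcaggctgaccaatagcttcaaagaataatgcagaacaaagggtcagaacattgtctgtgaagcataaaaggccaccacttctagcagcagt
Alas2, chrX:150547167-150547416, plus strand: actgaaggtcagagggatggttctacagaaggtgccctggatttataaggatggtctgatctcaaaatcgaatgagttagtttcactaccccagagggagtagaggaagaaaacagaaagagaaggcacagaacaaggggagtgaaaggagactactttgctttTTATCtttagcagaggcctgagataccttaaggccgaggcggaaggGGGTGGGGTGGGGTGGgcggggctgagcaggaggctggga
Each window held both motifs on 1 strand or the other, and in Alas2 the capitals near the start join 3 overlapping copies of GGGTGG. Of 32851 mouse promoter windows of this length, 22.6% held GATAA, 28.1% held CCACCC and 5.0% held both on either strand. A match is a description of these letters and shows no binding.

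**Figure D2:**
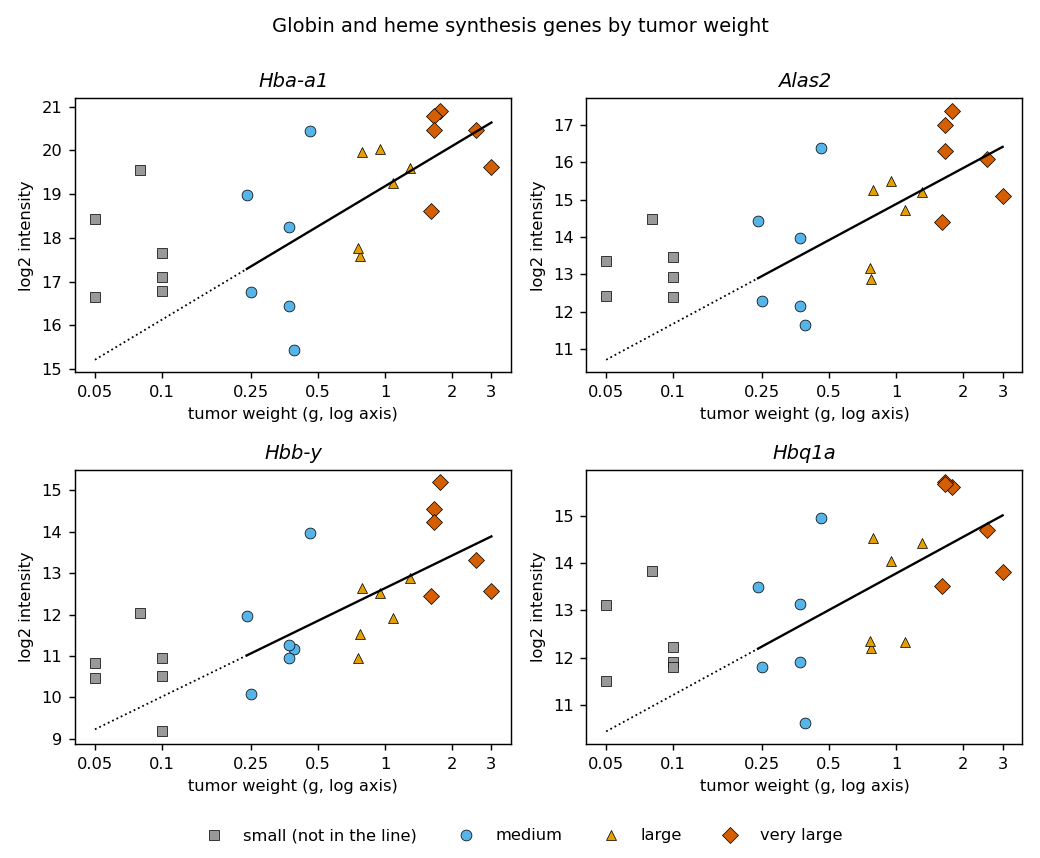
Log2 intensity (vertical axes) of Hba-a1, Alas2, Hbb-y and Hbq1a against tumor weight in g (horizontal log axes), 1 point per tumor. The solid line is the fit through the 18 larger tumors, dotted where it runs on to the small ones, which it leaves out. The high medium tumor in each panel is replicate 3.

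Among other genes with positive slopes, Olfr202, an olfactory receptor, had the smallest p of the named genes. Its log2 levels were 8.40, 8.92 and 9.55 in medium tumors, 9.66, 10.29 and 10.84 in large tumors and 9.98, 10.57 and 11.08 in very large tumors. The medium levels lay below 9.92, the median of all probes over the 18 arrays, and the floor was 7.39. All large and very large tumors lay above all medium ones, while large and very large tumors overlapped. The gene was picked by its p in the same fit, so this gap is no independent evidence. The slope was 1.95 (SE 0.41, limma adjusted p = 0.614), but it was 0.22 with size class as a block. Mfap4, a glycoprotein of elastic fibres, had log2 levels of 12.58, 13.16 and 13.51 in medium tumors, 12.84, 13.30 and 13.60 in large tumors and 13.62, 13.71 and 14.18 in very large tumors, with a slope of 0.85 (SE 0.21). Here the very large tumors lay above all medium and large ones.

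The transcription factors Nr2f1 and Pbx3 had slopes of 2.20 (SE 0.53) and 0.74 (SE 0.18), and 5 of 6 very large tumors lay above every medium one for each. Gnai2, an inhibitory G protein subunit, had a slope of 2.65 (SE 0.63) on the probe that stands for it. Its other probes disagreed, with slopes of 0.02 and 0.53, so no direction is drawn for this gene. BC008155 had a slope of 0.64 (SE 0.17).

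Catecholamine genes did not share a direction. Th had log2 levels of 16.63, 17.06 and 17.30 in medium tumors, 16.47, 17.24 and 18.81 in large tumors and 17.40, 17.75 and 18.68 in very large tumors. Every very large tumor lay above every medium one, while large tumors spanned both. Its slope was 1.10 (SE 0.32, 95% interval 0.43 to 1.77), and that of Slc18a1, a vesicular monoamine transporter, was 1.50 (SE 0.55), again with all very large above all medium tumors. Gch1, which makes the cofactor of tyrosine hydroxylase, had a slope of 0.85 (SE 0.31).

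Dbh had a slope near 0, at 0.12 (95% interval -0.52 to 0.76), and it was -0.15 with median-centred arrays. Slc18a2, the other vesicular monoamine transporter, and Phox2a had negative slopes of -0.69 and -0.67. Of 31 measured genes of the noradrenergic list, 5 had a positive and 2 a negative slope at an unadjusted p under 0.05, and the list's median slope was -0.02. With median-centred arrays the counts were 3 positive and 6 negative (beside 0.68% and 11.9% of named genes), and without normalization 0 and 5 (beside 0.192% and 8.99%). Chgb had a slope of 0.51 (95% interval -0.07 to 1.09) and the neurotensin receptor Ntsr2 one of 0.12 (-0.36 to 0.61), which was 0.19 without very large replicate 4.

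Neuronal genes had more negative than positive slopes. Of 33 measured genes of the neuronal list 22 had a negative slope, against 50.8% of all named genes, 3 of them and no positive one at an unadjusted p under 0.05, and the median was -0.09. The 3 were the RNA-binding protein Elavl2 (-0.70, SE 0.29), the microtubule regulator Stmn2 (-0.42, SE 0.18) and the microtubule protein Dcx (-1.35, SE 0.59). With median-centred arrays 10 of the list were negative at that level, beside 11.9% of named genes, and the median was -0.33. Without normalization 8 were negative at that level, beside 8.99%. Dcx had log2 levels of 12.20, 12.45 and 13.15 in medium tumors, 12.08, 12.46 and 12.63 in large tumors and 8.19, 12.33 and 12.54 in very large tumors. The value of 8.19 is very large replicate 4, and without it the slope was -0.37. Prph, a peripheral nerve intermediate filament, had a slope of -0.31 (95% interval -1.28 to 0.67), and of 0.22 without that array.

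Mycn, the mouse gene as the table names it, had log2 levels of 8.20, 10.18 and 11.96 in medium tumors, 7.96, 9.11 and 10.82 in large tumors and 7.96, 8.78 and 9.35 in very large tumors. Class medians were lower in heavier classes, and 2 of 6 very large tumors lay below every medium one. The medians of large and very large tumors lay below 9.92, the median of all probes over the 18 arrays, and the floor was 7.39. The slope was -1.42 (SE 0.71, 95% interval -2.89 to 0.05), and it was 1.00 with size class as a block. It is not known here whether this probe detects the human MYCN RNA as well. Among 21 measured MYC target and ribosome biogenesis genes 17 had a positive slope, none of the 21 at an unadjusted p under 0.05, with a median of 0.16. The nucleolar proteins Nolc1 and Rrp9 had slopes of 0.23 (95% interval -0.10 to 0.55) and 0.32 (-0.10 to 0.74). With median-centred arrays the list's median was -0.15, where named genes had a median of -0.26 and all probes one of -0.06.

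Genes of cell division had median slopes near 0 above the small class. Cenpe, the kinetochore kinesin named in the series title, had log2 levels of 13.54, 14.18 and 14.39 in medium tumors, 13.82, 14.20 and 14.77 in large tumors and 14.04, 14.36 and 14.54 in very large tumors. The classes overlapped throughout. Its slope was 0.28 (SE 0.19, 95% interval -0.11 to 0.67), so the interval holds no trend above a 2-fold difference per 10-fold weight. The slope was -0.01 with median-centred arrays.

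The median slope was 0.02 over 23 kinetochore and mitotic kinesin genes, 0.00 over 20 genes of mitotic entry and exit and 0.06 over 26 replication genes. Of these, 1 kinetochore gene, the NDC80 complex subunit Spc24 (0.46, SE 0.17), and 1 replication gene, the DNA ligase Lig1 (0.44, SE 0.20), had a positive slope at an unadjusted p under 0.05, and none had a negative one. Cdc6, a replication licensing factor, had a slope of 0.49 (SE 0.26), and of 0.27 without very large replicate 4. Spc25, the partner of Spc24 in the same complex, had a slope of -0.33 (SE 0.18), and Racgap1, a midzone regulator of cytokinesis, one of -0.22 (SE 0.12), which was -0.11 without that array. All 3 division lists had negative medians with median-centred arrays (-0.26, -0.26 and -0.22).

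Lists of the basic cell machinery also had medians near 0. Median slopes were 0.04 over 54 cytosolic ribosomal proteins, -0.01 over 44 splicing factors, -0.07 over 26 proteasome subunits, 0.00 over 30 chromatin modifiers and -0.03 over 38 respiratory chain genes. After quantile normalization, the 2 members at an unadjusted p under 0.05 in these 5 lists were the chromatin remodeller Atrx (-0.43, SE 0.18) and cytochrome c, Cycs (-0.79, SE 0.24). With median-centred arrays 23 members had a negative slope at that level (3 ribosomal, 6 splicing, 8 proteasome, 3 chromatin and 3 respiratory chain genes), beside 11.9% of all named genes. Without normalization 7 did, beside 8.99%, and neither scaling gave a positive one. The ribosomal protein Rpl23 (-0.39, SE 0.20) and the splicing factor Hnrnpc (-0.30, SE 0.16) had the smallest p of their lists. Of 44 mitochondrial ribosomal proteins 4 had a positive slope at that level, led by Mrps5 (0.38, SE 0.15), and the list's median was 0.05. None of the list was positive at that level with median-centred arrays or without normalization, and 1 was negative with median-centred arrays.

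The sign of such small list medians depended on the scaling. With median-centred arrays the ribosomal, mitochondrial ribosomal and chromatin lists had medians of -0.18, -0.23 and -0.29, and the splicing and proteasome lists -0.30 and -0.36, where named genes had a median of -0.26 and all probes one of -0.06. Without normalization the median of all probes was -0.39, and every list median was below 0 apart from those of the erythroid genes (2.55) and of the single kidney marker (0.08). The erythroid median was 2.88 with median-centred arrays and 3.05 after quantile normalization.

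**Figure D3:**
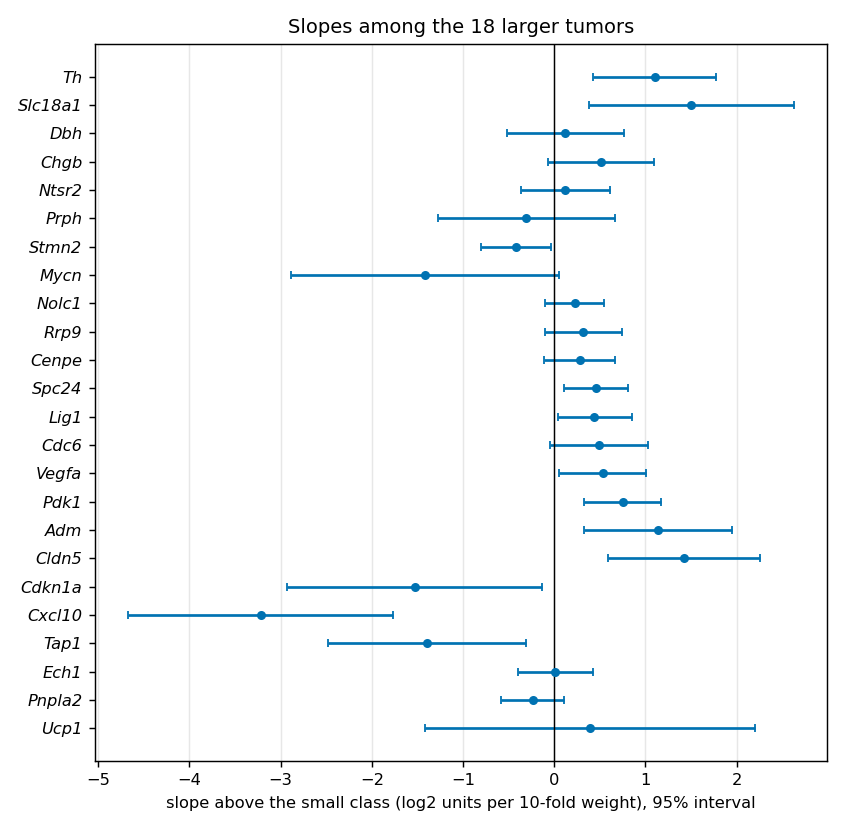
Slope of log2 intensity per 10-fold tumor weight among the 18 larger tumors (horizontal axis) for 24 genes (vertical axis). Points are slopes and bars limma's 95% intervals, which cover 0 for Cenpe, Mycn, Dbh and Ech1, and no slope passed after adjustment.

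Hypoxia genes and vessel genes held a few positive slopes. Vegfa, the main vessel growth factor, had log2 levels of 12.25, 12.57 and 13.28 in medium tumors, 12.58, 12.88 and 13.45 in large tumors and 12.69, 12.91 and 13.62 in very large tumors. Its classes overlapped, with 1 very large tumor above every medium one. The slope was 0.53 (SE 0.23, 95% interval 0.05 to 1.01) on this probe, 0.56 on a second probe and -0.08 without normalization between arrays.

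Pdk1, which slows pyruvate entry into mitochondria, and Adm, a vasodilator peptide, had slopes of 0.75 (SE 0.20) and 1.14 (SE 0.39). With Vegfa they were the 3 of 22 hypoxia and glycolysis genes at an unadjusted p under 0.05, and the median over the list was 0.08, or -0.17 with median-centred arrays. With that scaling 1 of the 22 was positive and 3 were negative at an unadjusted p under 0.05 (beside 0.68% and 11.9% of named genes). Without normalization the counts were 0 and 3 (beside 0.192% and 8.99%). Of 16 endothelial and pericyte genes 12 had a positive slope, 3 of them at that level, and the median was 0.33. With median-centred arrays the median was 0.09, with 1 positive and 1 negative at that level (beside 0.68% and 11.9%). Without normalization it was -0.24, with 0 and 1 (beside 0.192% and 8.99%). Cldn5, a tight junction protein of endothelium, had a slope of 1.42 (SE 0.40), Egfl7, an endothelial secreted protein, one of 0.52 (SE 0.24), and the pericyte proteoglycan Cspg4 one of -1.39 (SE 0.59). The slope of Cspg4 was -0.50 without very large replicate 4. The summed intensity of the endothelial list ran from 84189 to 203366 in medium tumors, from 118633 to 225544 in large tumors and from 146411 to 220458 in very large tumors, with no member at the floor, and its part in these slopes was not tested.

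Cytokine and interferon genes supplied the named gene with the smallest p among negative slopes. Cxcl10, a chemokine induced by interferon, had log2 levels of 10.49, 11.21 and 13.64 in medium tumors, 8.31, 10.05 and 11.25 in large tumors and 7.57, 9.03 and 10.46 in very large tumors. Every very large tumor lay below every medium one, and the large tumors overlapped both. The slope was -3.22 (SE 0.70, 95% interval -4.67 to -1.77, limma adjusted p = 0.614), and it was -3.76 without very large replicate 4. Irf1, an interferon-induced transcription factor, had a slope of -1.11 (SE 0.35), whereas Isg20, an interferon-induced exonuclease, had one of 2.18 (SE 0.68).

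Of 15 interferon response genes 11 had a negative slope, against 50.8% of all named genes, with a median of -0.24. At an unadjusted p under 0.05, 1 was positive and 2 were negative, beside 2.86% and 3.96% of named genes. The counts were 1 and 3 with median-centred arrays (beside 0.68% and 11.9%), and 1 and 4 without normalization (beside 0.192% and 8.99%). Tap1, the peptide transporter of antigen presentation, had a slope of -1.39 (SE 0.53), and 7 of 10 genes of the MHC class I list were negative with a median of -0.23. At an unadjusted p under 0.05, 0 of these 10 were positive and 1 was negative. The counts were the same with median-centred arrays and without normalization. Socs3, a feedback inhibitor of cytokine signalling, and Casp4, an inflammatory caspase, had slopes of -0.96 (SE 0.27) and -2.21 (SE 0.55). Myeloid markers leaned neither way over 17 genes (median 0.01), with S100a9, a neutrophil calcium-binding protein, at 2.34 (SE 0.98) and the macrophage receptor Csf1r at -0.94 (SE 0.44). The slope of Csf1r was -0.57 without very large replicate 4.

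Hoxd9, a homeobox gene of body position, had log2 levels of 12.88, 14.25 and 15.54 in medium tumors, 13.06, 13.65 and 15.03 in large tumors and 9.46, 11.19 and 14.49 in very large tumors. Of the very large tumors 4 lay below every medium one, while replicates 1 and 6 lay within the medium range. The slope was -3.55 (SE 0.84). Tnc, a matrix glycoprotein, had a slope of -1.23 (SE 0.29), the heparan sulfate proteoglycan Sdc4 one of -2.0 (SE 0.54) and the steroid sulfate transporter Slc10a6 one of -2.31 (SE 0.54). Plekha4 (-2.35, SE 0.58), Tdrd7 (-1.02, SE 0.26), the brain creatine kinase Ckb (-0.74, SE 0.19), Chp1 (-0.49, SE 0.13) and Pnn (-0.54, SE 0.15) completed the 12 named genes with the smallest p in this direction.

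Of 9 measured Schwann cell and satellite glia genes, 4 had a negative slope at an unadjusted p under 0.05 and none a positive one, beside 3.96% and 2.86% of all named genes. With median-centred arrays 3 were negative, beside 11.9%, and without normalization 4, beside 8.99%. The 4 included the BMP antagonist Sostdc1 (-3.20, SE 1.03), Fabp7, a fatty acid binding protein of glia (-2.67), and the glial receptor Gpr37l1 (-1.47, SE 0.66). Gpr37l1 was at the floor on 1 very large array. The list's median was -0.30. Its summed intensity overlapped widely, at 158518 to 1123716 in medium tumors, 283239 to 708546 in large tumors and 383684 to 646862 in very large tumors, and the part of glial cells in these slopes was not tested.

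Fibroblast and matrix genes split, with 3 of 23 positive and 5 negative at an unadjusted p under 0.05 and a median of -0.04. The counts were 2 and 6 with median-centred arrays (beside 0.68% and 11.9% of named genes), and 0 and 7 without normalization (beside 0.192% and 8.99%). Col6a2, a collagen VI chain, had a slope of 1.24 (SE 0.38), while Timp1, an inhibitor of matrix proteases, had one of -1.07 (SE 0.32). The other list members that led their lists were the small heat shock protein Hspb8 (-1.57, SE 0.56) and Mvk, an enzyme of cholesterol synthesis (-1.28, SE 0.40, and -0.75 without very large replicate 4). Cdkn1a, the p53-induced inhibitor of cyclin-dependent kinases, had a slope of -1.53 (SE 0.68), and of -0.56 without very large replicate 4.

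The small class was then set against the line through the larger tumors. This test gives the mean level of the small tumors minus the level that the line of the 18 larger tumors has at the same weight. A positive value means that small tumors stood above the line. No larger tumor weighed under 0.24 g, so the line is extended beyond its data to the small tumors of 0.05 to 0.1 g. Each value therefore also depends on the slope among the larger tumors. At an adjusted p under 0.05, 1 of 32996 probes passed (0.00303%), and 1970 (5.97%) had an unadjusted p under 0.05. Among named genes 349 (4.48%) lay above the line and 234 (3.00%) below it at an unadjusted p under 0.05.

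The probe that passed was that of Ech1, a mitochondrial and peroxisomal enzyme of fatty acid oxidation. Its log2 levels were 13.31, 14.38 and 14.84 in small tumors, 12.44, 12.65 and 12.82 in medium tumors, 12.30, 12.60 and 13.32 in large tumors and 12.40, 12.59 and 12.88 in very large tumors. The small class overlapped the rest only where its lowest tumor met the highest large one. The slope among larger tumors was 0.01 (95% interval -0.40 to 0.42), and the small class stood 1.65 above that line (SE 0.27, limma adjusted p = 0.0437). The size held in every fit that left out 1 array (1.53 to 1.84), but the call did not, since the adjusted p ran from 0.00191 to 0.364 and passed in 6 of 24 fits. Those 6 fits left out small replicate 3 or 5, medium replicate 5, large replicate 2 or 6, or very large replicate 3, and the call was lost without any of the others, very large replicate 4 included. The call was also lost with median-centred arrays (1.49, limma adjusted p = 0.154), without normalization (1.29, adjusted p = 0.921), without the intensity trend in the variance prior (1.65, adjusted p = 0.0932) and without a slope of the small class's own (1.51, adjusted p = 0.255, an alternative chosen after seeing the data).

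Other genes with high values, picked after these were seen, did not pass. Eci1, another enzyme of fatty acid oxidation, stood 1.55 above the line in small tumors (SE 0.28, limma adjusted p = 0.108), Coq8a, a regulator of coenzyme Q synthesis, 2.70 (SE 0.50) and the thiolase Acaa2 1.36 (SE 0.28). Ppara, the nuclear receptor for fatty acids, stood 3.94 above it (SE 0.77), and Pnpla2, the lipase that opens triglyceride breakdown, 1.36 (SE 0.34). Among the larger tumors these genes had slopes of 0.22, -0.26, -0.02, 0.88 and -0.23, and each of those intervals covers 0. Ppara was at the floor on 1 medium array.

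Ucp1, the uncoupling protein of brown fat, had log2 levels of 15.46, 18.36 and 19.74 in small tumors, 10.09, 15.00 and 16.18 in medium tumors, 12.73, 13.53 and 14.56 in large tumors and 13.35, 14.42 and 15.38 in very large tumors. Of the small tumors 5 of 6 lay above all others, and the 3 larger classes overlapped. The slope among larger tumors was 0.39 (95% interval -1.42 to 2.20), and small tumors stood 4.44 above the line (SE 1.11, limma adjusted p = 0.279). Pdk4 (-1.74, SE 0.70) was the 1 of 12 brown fat genes with a slope at an unadjusted p under 0.05, and Acadl, an acyl-CoA dehydrogenase, had a slope of -0.70 (SE 0.41), and of -0.43 without very large replicate 4.

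Ckm, the muscle creatine kinase, had log2 levels of 9.78, 16.78 and 17.78 in small tumors, 8.84, 10.20 and 15.09 in medium tumors, 8.89, 9.78 and 14.67 in large tumors and 8.25, 11.12 and 14.95 in very large tumors. Within each larger class a few tumors had high Ckm, namely medium replicate 5, large replicate 1 and very large replicates 2 and 6. The slope was -0.01 (95% interval -2.74 to 2.72), with the sign turned in several fits that left out 1 array (-0.76 to 0.88), and small tumors stood 4.71 above the line (SE 1.76, limma adjusted p = 0.692). Tnnt1, a slow muscle troponin, was the 1 of 13 muscle genes with a slope at an unadjusted p under 0.05 (-1.72, SE 0.77).

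Over whole lists the same contrast held as a description. Skeletal muscle genes had a median slope of 0.04 among larger tumors and a median of 4.71 for small tumors above the line. At an unadjusted p under 0.05, 12 of 13 lay above it, beside 4.48% of all named genes. For brown fat the values were -0.40 and 1.83, with 10 of 12, and for white adipocytes -0.12 and 1.90, with 8 of 12. The summed intensity of the 13 muscle genes ran from 44875 to 4373548 in small tumors, 29432 to 907834 in medium tumors, 27387 to 545839 in large tumors and 29206 to 1186756 in very large tumors. That of the 12 brown fat genes ran from 443876 to 2746461 in small tumors, 197006 to 475800 in medium tumors, 204882 to 350938 in large tumors and 222845 to 342529 in very large tumors. Of these lists only Tnnt3 and Ppara were at the floor on any of the 18 arrays, and the part of muscle and fat tissue in the step out of the small class was not tested.

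**Figure D4:**
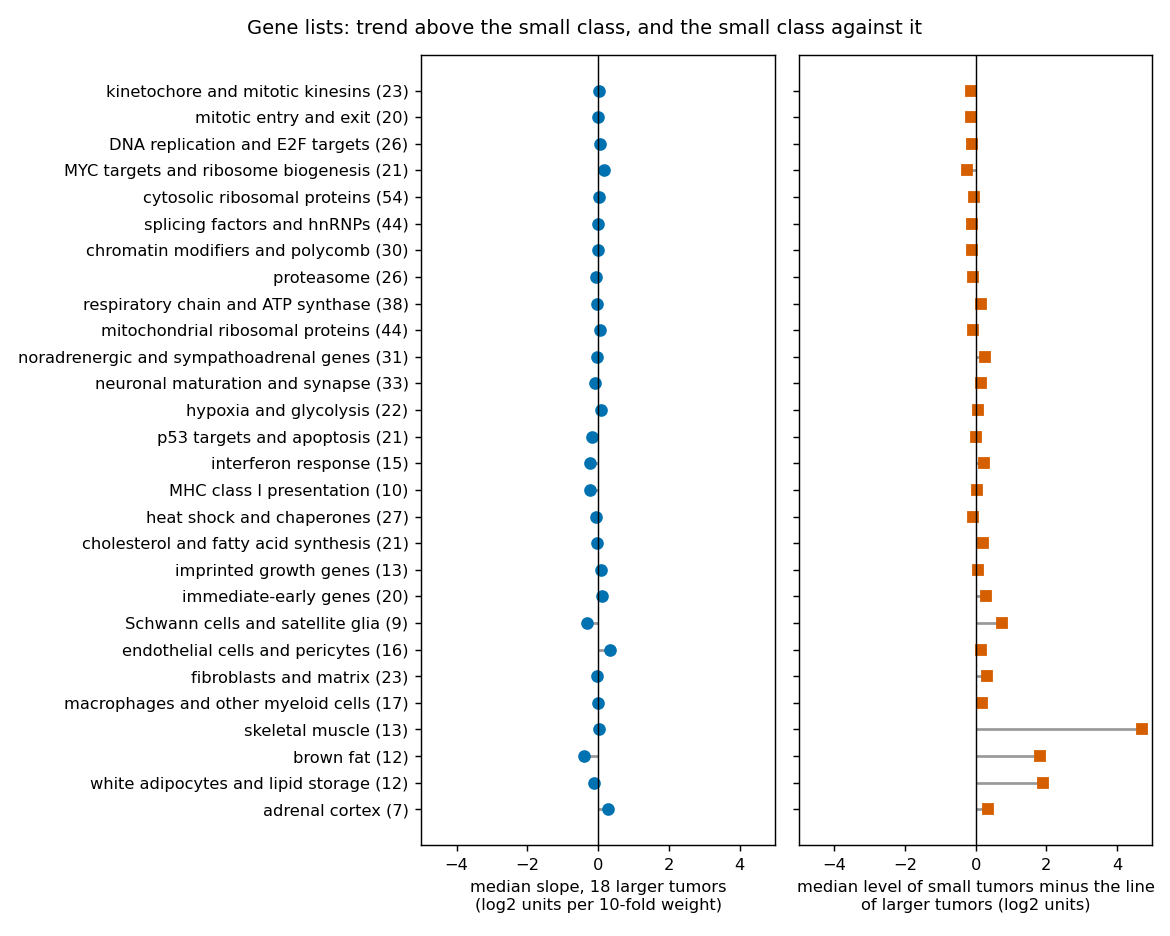
Median slope of each gene list among the 18 larger tumors (left, log2 units per 10-fold weight) and median of the small class minus the line of the larger tumors (right, log2 units), with the number of genes measured in brackets. Muscle stands at 0.04 and 4.71 and brown fat at -0.40 and 1.83. The kinetochore, mitotic and replication lists stand at 0.02, 0.00 and 0.06 on the left and at -0.12, -0.13 and -0.11 on the right.

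Of 33 neuronal genes 3 lay above the line in small tumors at an unadjusted p under 0.05 (median 0.15), and of 31 noradrenergic genes 6 did (median 0.26), beside 4.48% of all named genes. Of 21 MYC target and ribosome biogenesis genes 4 lay below it at that level and 0 above (median -0.23), beside 3.00% of named genes below. Of 23 kinetochore, 20 mitotic and 26 replication genes, 4, 2 and 4 had a value above the line. The median value of all named genes was -0.015, and their share above the line is not given here. In the 3 division lists 0 lay above or below the line at an unadjusted p under 0.05. None passed after adjustment. Prph had log2 levels of 13.17, 14.09 and 15.98 in small tumors, 10.68, 11.67 and 12.73 in medium tumors, 11.09, 11.86 and 12.71 in large tumors and 9.71, 11.73 and 12.46 in very large tumors. All small tumors lay above all larger ones, and the small class stood 2.41 above the line (SE 0.63, limma adjusted p = 0.287). Dbh stood 1.24 above it (SE 0.39) and Th 1.49 (SE 0.38), with a positive slope of Th among larger tumors, so the Th levels were lower in medium tumors than in either small or very large ones by class median.

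Ntsr2 stood 1.09 log2 units below the line in small tumors (a value of -1.09, SE 0.29, limma adjusted p = 0.287). Mycn departed by 0.40 (SE 0.85) and Cenpe by -0.13 (SE 0.23), both within their errors. For comparison, a slope fitted over all 24 tumors, small class included, passed for 1843 probes (5.59%), and its median half-width was 0.225 against 0.432 for the 18.

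**Figure D5:**
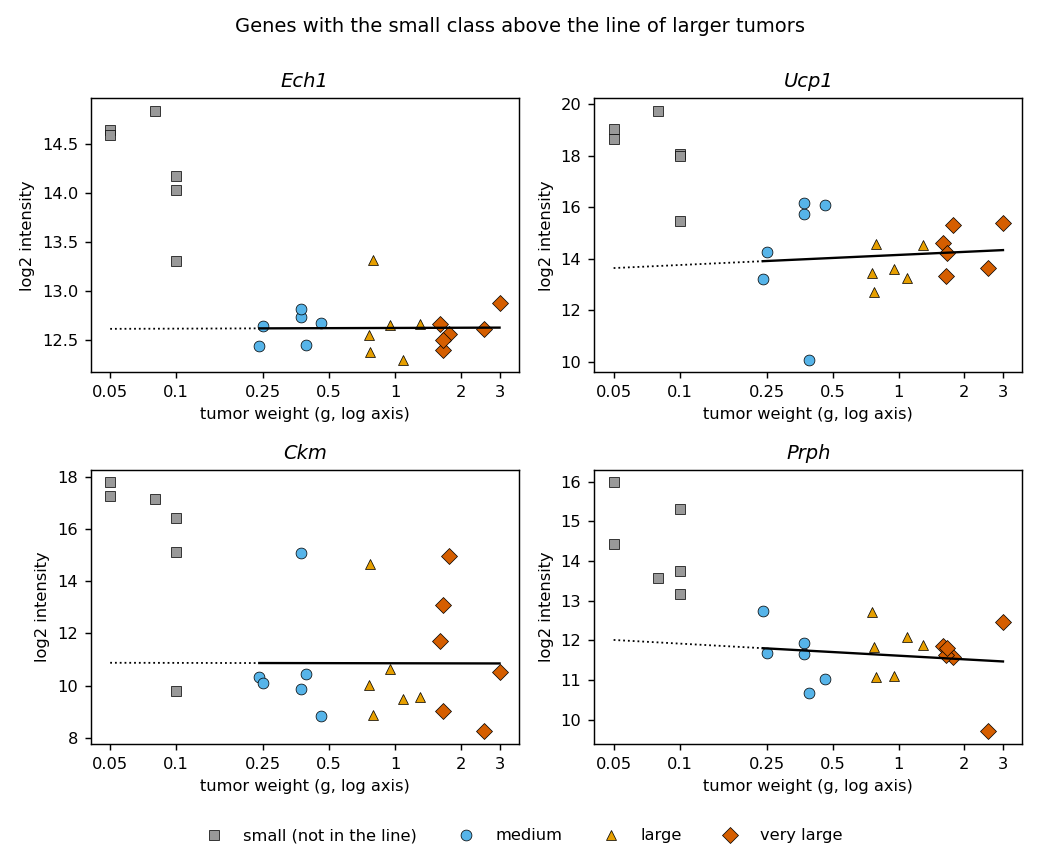
Log2 intensity (vertical axes) of Ech1, Ucp1, Ckm and Prph against tumor weight in g (horizontal log axes), 1 point per tumor. Solid lines are fits through the 18 larger tumors, dotted where they run on to the small class. The small tumors of Ech1 lie 1.65 above the line on average, and those of Prph 2.41.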

How the data were processed

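The deposited series table holds array intensity values for 33012 probes that the authors had not normalized between arrays. Per the labels, arrays were labelled with digoxigenin by the maker's protocol; how background was corrected is not stated there. The 24 set 1 arrays were quantile normalized together (limma 3.58.1, R 4.3.3), values below the 1st percentile (168.105 intensity units) were raised to it, and log2 was taken. A probe missing a value was left out (16), which left 32996. Names came from the authors' ganglia table: 8346 probes had 1 symbol, updated through RefSeq of GRCm38.p6 (5010 current, 3086 updated, 250 kept), and gave 7797 genes. For 487 genes with several probes the brightest stood for the gene. The other 24650 probes were tested without a name.

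Slopes on log10 weight, class contrasts and the departure of the small class were fitted with lmFit and eBayes with an intensity trend, two-sided, with Benjamini-Hochberg adjustment over all probes. Relations across tumors used permutation tests (100000 resamples, or exact within classes). The script was tested on simulated data. Tables and figures used pandas 2.3.3, matplotlib 3.10.9, scipy 1.17.1 and numpy 2.4.6 under Python 3.11.15. The number of arrays limits precision.

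Genes named are, by rule, those past the threshold or, as none passed, the 12 smallest p in each direction, up to 3 genes per list by p, key genes, and calls of the departure test. Genes outside it (Fabp7, Slc18a2, Phox2a, Eci1, Coq8a, Ppara, Acaa2, Tnnt3, Myl1, Tnni2, Acta1, Tnnc2, Inppl1, Cfd) were chosen after their values were seen. The members and lists were chosen with earlier results of these data known. Alternatives covered normalization, floor, filter, variance prior, weight scale, covariates and samples. Some genes chosen by this rule are left unreported.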

Additional observations from a re-analysis of the deposited data

Results flagged for a closer look

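Within a class of 6, a tumor was picked out where its gap to the nearest other tumor made up an unusually large share of the class range (Dixon's test at 95%). Of 234 class and gene groups 28 were picked out, and chance gives about 5%. Very large replicate 4 was lowest of its class for Dcx (8.19), Cspg4 (7.56), Cdkn1a (7.73) and Prph (9.71), highest for Adm (14.97), and highest on the first principal component (141.6). On that component medium replicate 3 (13.5) and large replicate 4 (22.2) were also highest of their classes, and on the second large replicate 6 was (90.6). Large replicate 4 was highest for Egfl7 (13.54) and Tnnt1 (13.78) and lowest for Stmn2 (18.98). Medium replicate 3 was highest for Isg20 (14.30) and lowest for Slc10a6 (10.42) and Cdkn1a (11.42). Very large replicate 1 was lowest for Gnai2 (19.66) and Cldn5 (12.63), very large replicate 5 for Dbh (12.04), and very large replicate 2 was highest for Col6a2 (13.13). Large replicate 1 was highest for Racgap1 (16.57) and Ckm (14.67), large replicate 2 for Acadl (14.85) and Ech1 (13.32), large replicate 6 for Scarb1 (14.53), and large replicate 3 was lowest for Irf1 (11.41). Medium replicate 1 was highest for Dcx (13.15) and lowest for Ntsr2 (12.57), and medium replicate 5 was highest for Ckm (15.09). The values are log2 intensities, apart from the component scores.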

How the results depend on the processing

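No probe passed for the weight slope under any alternative confined to the larger tumors, and with all 24 tumors 1843 did. Leaving out 1 tumor gave 0 for the slope and 0 for very large minus medium in every fit, with 1619 to 2198 and 1482 to 2046 probes at an unadjusted p under 0.05. For the departure of the small class the count was 0 with median-centred arrays, without normalization, without the intensity trend and without a slope of the small class's own (an alternative chosen after seeing the data), 5 with life span as a covariate, and 0 to 18 with 1 array left out (18 without small replicate 5). The median slope of all probes was -0.39 without normalization and -0.06 with median-centred arrays. No paired analysis was made, since the labels tie no tumors into pairs. Signs turned as follows, and the cause was not tested. With all 24 tumors: Cldn5 -0.10, Timp1 0.06, Aqp1 -0.51, Dbh -0.72, Ucp1 -2.69, Ech1 -1.14. Median-centred: Nolc1 -0.05, Cenpe -0.01, Dbh -0.15, Ntsr2 -0.17, Ckm 0.04, Ech1 -0.25. Without normalization: Spc24 -0.14, Lig1 -0.19, Cdc6 -0.13, Rrp9 -0.29, Nolc1 -0.38, Mrps5 -0.23, Vegfa -0.08, Egfl7 -0.06, Scarb1 -0.03, Cenpe -0.34, Dbh -0.48, Chgb -0.06, Ntsr2 -0.50, Ucp1 -0.25, Ech1 -0.58. With size class as a block: Tap1 1.57, Egfl7 -0.26, Col6a2 -0.04, Mycn 1.00, Ntsr2 -1.26. Without very large replicate 4 and with the other 17 normalized anew (chosen after seeing the data): Prph 0.22, Ckm 0.75. Ckm was 0.01 on ranks of weight and 1.16 without the tumors of 2.55 and 3 g, where Ech1 was -0.10. Dbh was -0.05 in plain grams, Ech1 -0.01 with life span, and the departure of Mycn -0.10 with life span. With 1 tumor left out, slopes ran from -0.08 to 0.42 for Dbh, -0.66 to 0.22 for Prph, -0.07 to 0.22 for Ntsr2, -0.37 to 0.85 for Ucp1, -0.76 to 0.88 for Ckm and -0.08 to 0.05 for Ech1, and the departure of Mycn from -0.44 to 1.00.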

Other observations

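The named genes that varied most among the 18 larger tumors did not follow weight, and were picked after their values were seen. The 5 with the highest SD were muscle genes: the troponin Tnnt3 (SD 3.07 log2 units, slope -0.34), the myosin light chain Myl1 (2.91, slope 1.36), the troponin Tnni2 (2.69, slope -0.17), the actin Acta1 (2.60, slope 0.44) and the troponin Tnnc2 (2.33, slope 0.27). Myl1 had log2 levels of 15.98 in medium replicate 5, 15.88 in large replicate 1, 16.80 in very large replicate 2 and 14.46 in very large replicate 6, the same tumors that were high for Ckm. Next came Inppl1 (2.32, slope 2.72), the adipocyte protease Cfd (2.26, slope -0.72) and the glial gene Fabp7 (2.23, slope -2.67).

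Scarb1, a lipoprotein receptor of steroid-making cells, had a slope of 0.58 (SE 0.25) and was the 1 of 7 adrenal cortex genes at an unadjusted p under 0.05. Aqp1, the 1 measured kidney marker and a water channel also found in vessels, had a slope of 0.68 (SE 0.31), and small tumors stood 1.71 above its line.

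Among lists not described above, the median slope was -0.17 over 21 p53 target and apoptosis genes, -0.05 over 27 heat shock and chaperone genes, -0.03 over 21 genes of cholesterol and fatty acid synthesis, 0.09 over 13 imprinted growth genes and 0.11 over 20 immediate-early genes. The immediate-early list held 1 positive slope (Egr1, 1.03) and 1 negative slope (Egr4, -1.11) at an unadjusted p under 0.05, both transcription factors of the same family.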
